A study of Homo sapiens with 4 samples.

Results

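The 10 genes described here encode mTOR, its partner proteins and the regulators that act on it directly: MTOR, RPTOR, RICTOR, MLST8, DEPTOR, AKT1S1, TSC1, TSC2, RHEB and SESN3. They were picked by name from the table of 14431 genes, and all 10 were found in it. RNA-seq was performed on HGC27 cells, an established human gastric cancer line, with 2 control libraries (genotype given as WT) and 2 libraries of cells transfected with small interfering RNA against AARS1 (siAARS1, genotype given as AARS1 knockdown). Both groups were grown in DMEM without glucose, with 10% serum and 25 mM added lactate. The labels give 24 h of lactate and the text of the study another time, so the duration was uncertain. No group without lactate entered the comparison. The siRNA sequence and the number of siRNAs used were not given in the sources used here. The labels do not say that replicates came from separate cultures, so p-values measured only the spread between these libraries, which may be technical.

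mTOR is a kinase that couples nutrient, energy and growth factor supply to protein synthesis and autophagy. It works in complex 1 (mTORC1), which holds RPTOR, and in complex 2 (mTORC2), which holds RICTOR. MLST8 and DEPTOR are found in both complexes, while AKT1S1 (PRAS40) binds mTORC1. The small GTPase RHEB switches mTORC1 on at the lysosome, the TSC1-TSC2 complex switches RHEB off, and sestrins such as SESN3 restrain mTORC1 when amino acids are scarce. AARS1 encodes the cytosolic alanyl-tRNA synthetase, which joins alanine to its tRNA. The comparison asked which of these transcripts differed when AARS1 was knocked down under lactate.

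The coding sequences of these genes differed widely in base composition, and for all genes together the changes described later went down with it. A stretch of 150 coding bases, GRCh38 with GENCODE v29 transcripts, is given for RICTOR and SESN3, the members with the largest rises and both AT-rich, and for GC-rich RPTOR. Each lies within 1 exon and was the in-frame window whose GC content was nearest to that of the whole coding sequence. The windows are chr5:38981870-38982019 on the minus strand for RICTOR (40.7% GC), chr11:95185343-95185492 on the minus strand for SESN3 (42.7% GC) and chr17:80707844-80707993 on the plus strand for RPTOR (59.3% GC). Capitals mark in-frame alanine codons (GCN), of which the windows hold 3, 4 and 1.
RICTOR: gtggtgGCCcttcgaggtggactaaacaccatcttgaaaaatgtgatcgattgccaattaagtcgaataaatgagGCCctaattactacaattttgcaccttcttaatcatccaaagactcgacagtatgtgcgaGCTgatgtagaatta
SESN3: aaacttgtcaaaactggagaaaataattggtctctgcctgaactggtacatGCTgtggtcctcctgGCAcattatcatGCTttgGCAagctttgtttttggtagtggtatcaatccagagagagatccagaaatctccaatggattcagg
RPTOR: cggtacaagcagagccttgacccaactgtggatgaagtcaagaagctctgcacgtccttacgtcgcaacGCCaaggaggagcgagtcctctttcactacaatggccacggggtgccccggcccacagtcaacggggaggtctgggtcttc

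Depth ranged from 30653210 to 33522573 reads per library over the listed genes, and 3 reads, the most that a count of 0 allows, equalled 0.0880 to 0.0971 CPM (reads of a gene scaled to the size of its library). Such limits cover counting error only. The targeted gene AARS1 (listed as AARS, ENSG00000090861) had 428 and 417 CPM in the controls against 292 and 298 CPM under siAARS1, 69.7% of the control mean (log2 fold change -0.52 ± 0.0357 (SE), limma adjusted p = 2.52e-11). It was -0.75 with each library divided by its median CPM. After the corrections for transcript or coding GC content and length described later it was -0.32 and -0.51. AARS1 was called lower in each of these fits. Among markers of the cell type, VIM was high (4600 to 5131 CPM). The sum of the epithelial markers KRT8 and CDH1 was 27.0 to 27.3 CPM in control and 6.14 to 7.29 CPM in siAARS1 libraries. EPCAM, KRT18 and KRT19 were not analysed here, nor were any of the 6 gastric mucosa, 3 leukocyte and 2 endothelial markers. The sum of 3 of 4 mesenchymal markers, carried by VIM, was 5150 to 5209 against 4704 to 4814 CPM, while ZEB1 alone had 6.16 and 6.84 against 50.03 and 52.3 CPM. The fibroblast markers COL1A1 and DCN summed to 2559 to 2649 against 1812 to 1902 CPM, with DCN alone at 239 and 250 against 258 and 270 CPM. The part of these differences in the results was not tested. In such bulk libraries fewer cells of a type and less RNA per cell cannot be told apart.

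Of the 10 genes, 7 passed the test (limma on log2(CPM + 1), Benjamini-Hochberg adjusted p under 0.05 over 14199 genes), against 70.7% of all genes tested. RICTOR, SESN3, TSC1 and MTOR were higher in siAARS1 cells (32.6% of all genes were called higher), and RHEB, DEPTOR and MLST8 were lower (38.0% called lower). RICTOR and SESN3 were at least 2-fold higher, as were 10.6% of all genes, and no member was at least 2-fold lower (1.63% of all genes). The siAARS1 and control libraries did not overlap for any of the 10 genes, a separation shared by 85.1% of all genes tested, so neither count set these genes apart from the rest. The median log2 fold change was 0.01 over the members and -0.05 over all genes. The direction of MTOR depended on the scaling, as given with its values.

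**Figure D1:**
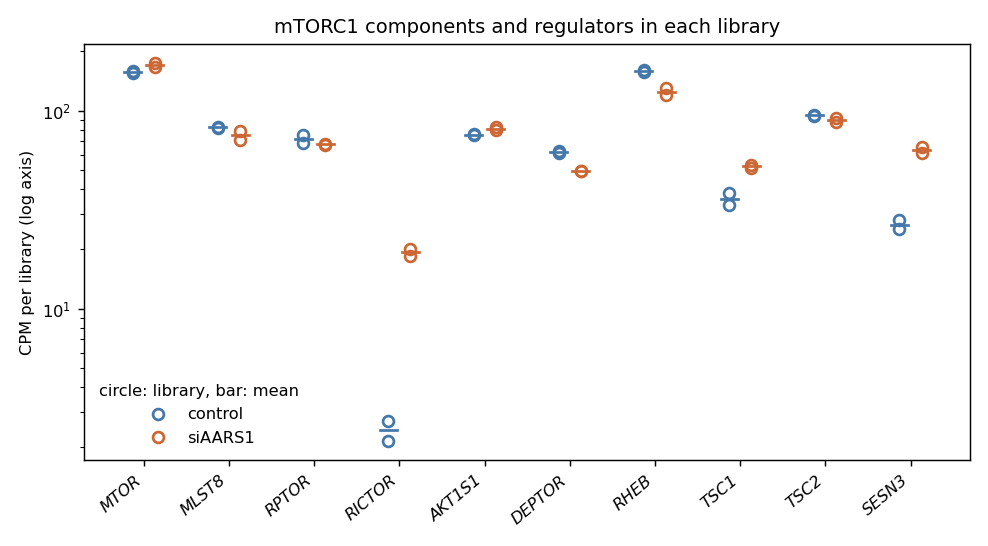
CPM of each gene (log axis) in the 2 control and 2 siAARS1 libraries; circles are libraries and bars are group means. RICTOR stands apart in the control libraries at 2.14 and 2.71 CPM and reaches 18.5 and 20.1 CPM in siAARS1 libraries, while MTOR, MLST8, RPTOR, AKT1S1 and TSC2 lie between 91.4% and 109% of their control means.

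MTOR (ENSG00000198793, chr1:11106535-11262507, minus strand), the kinase itself, had 154 and 158 CPM in the controls against 174 and 167 CPM under siAARS1. Both siAARS1 libraries were above both controls, at 109% of the control mean. The difference passed the test (log2 fold change 0.12 ± 0.0404 (SE), limma adjusted p = 0.00911), but it was -0.10 when each library was divided by its median CPM. That scaling moved the median of all genes by -0.21 on the log2 scale; relative to the all-gene median, MTOR was higher by 0.18 with the deposited scaling and by 0.16 with median scaling. The call was lost without control replicate 1 (log2 fold change 0.11) and without siAARS1 replicate 1 (0.09).

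MLST8 (ENSG00000167965, chr16:2204248-2209416, plus strand), the WD40 subunit common to both complexes, had 81.6 and 83.1 CPM in the controls against 79.1 and 71.4 CPM under siAARS1. It was lower in both siAARS1 libraries, one of them close to the controls (log2 fold change -0.13 ± 0.0511 (SE), limma adjusted p = 0.0278). The call was lost without control replicate 1 (-0.14), without control replicate 2 (-0.12) and without siAARS1 replicate 2 (-0.06), and in edgeR with TMM (-0.09) and DESeq2 (-0.08), but not in edgeR with library size only (-0.15). MLST8 shares 164 exon bases with BRICD5 on the opposite strand, and the use of strand in the counting was not stated.

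RPTOR (ENSG00000141564, chr17:80544819-80966371, plus strand), the scaffold that brings substrates to mTORC1, had 68.8 and 75.3 CPM in the controls against 68.3 and 66.9 CPM under siAARS1. The siAARS1 libraries lay just under the lower control. The log2 fold change was -0.09 (95% confidence interval -0.20 to 0.02, limma adjusted p = 0.120) and did not pass the test. It was -0.15 without control replicate 1, and it passed under median scaling (-0.32) and under quantile normalization (-0.17). Relative to the all-gene median, RPTOR was at -0.04 with the deposited scaling, -0.05 with median scaling and -0.03 with quantile normalization.

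RICTOR (ENSG00000164327, chr5:38937919-39074408, minus strand), which defines mTORC2, had the largest difference of the 10 genes with the deposited scaling. It had 2.14 and 2.71 CPM in control libraries (73 and 86 reads) and 18.5 and 20.1 CPM in siAARS1 libraries (572 and 669 reads). Its mean went from 2.43 ± 0.403 to 19.3 ± 1.13 CPM (SD, n = 2), 796% of control, and the groups were far apart. On the log2 scale the difference was 2.57 ± 0.116 (SE; limma adjusted p = 1.47e-14), at percentile 99.3 of all genes tested. Overlap with OSMR on the opposite strand covers 1.69% of the exon bases of RICTOR.

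Within a library, the CPM ratio of RICTOR to RPTOR compares the defining subunits of the complexes. The ratio was 3.11% and 3.60% in control libraries and 27.1% and 30.1% in siAARS1 libraries. On the log2(CPM + 1) scale used for each ratio here, the difference between the groups was 2.66, and 3.04 with a pseudocount of 0.1 (exact two-sided permutation test, p = 0.333, which is the smallest p that 2 against 2 libraries can give, as for each of the 4 ratios examined here; adjusted p = 0.333). It was 0.33 at the least after the corrections for base composition and length described later.

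Of the inhibitory subunits, DEPTOR passed the test and AKT1S1 did not, and the difference between them was not tested. DEPTOR (ENSG00000155792, chr8:119873717-120050913, plus strand), which binds and restrains mTOR in both complexes, had 62.9 and 61.2 CPM in the controls against 49.4 and 49.8 CPM under siAARS1. Replicates were close and the groups well separated, at 79.9% of the control mean (log2 fold change -0.32 ± 0.0511 (SE), limma adjusted p = 1.11e-05). DEPTOR shares 9.61% of its exon bases with the noncoding RNA gene AP005717.1 on the opposite strand. The CPM ratio of DEPTOR to MTOR was 40.8% and 38.8% in control libraries and 28.4% and 29.9% in siAARS1 libraries, a difference in log2 ratio of -0.44 (exact permutation test, p = 0.333). 

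AKT1S1 (ENSG00000204673, chr19:49869033-49878459, minus strand), the mTORC1 inhibitor that AKT phosphorylates, had 75.7 and 75.9 CPM in the controls against 82.4 and 79.8 CPM under siAARS1. Both siAARS1 libraries were above the controls by a small margin, 107% of the control mean. The log2 fold change was 0.10 (95% confidence interval -0.000109 to 0.19, limma adjusted p = 0.0689), which did not pass the test. EdgeR with TMM (0.14) and DESeq2 (0.15) called it higher, and edgeR with library size only did not (0.08). Median scaling turned it to -0.13, called lower. Relative to the all-gene median, AKT1S1 was higher by 0.15 with the deposited scaling and by 0.13 with median scaling. AKT1S1 shares 6.83% of its exon bases with TBC1D17 on the opposite strand.

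RHEB (ENSG00000106615, chr7:151466012-151520120, minus strand), the GTPase that activates mTORC1, had 160 and 157 CPM in the controls against 120 and 130 CPM under siAARS1. It was lower in both siAARS1 libraries, at 78.8% of the control mean, the largest fall among the members with the deposited scaling (log2 fold change -0.34 ± 0.0439 (SE), limma adjusted p = 5.15e-07). Processed pseudogenes RHEBP1, RHEBP2 and RHEBP3 are annotated, so the level of RHEB may hold reads that match more than 1 copy.

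The partners that inactivate RHEB did not move alike. TSC1 (ENSG00000165699, chr9:132891348-132946874, minus strand), which stabilizes the complex, had 38.2 and 33.4 CPM in the controls against 51.6 and 53.2 CPM under siAARS1. Both siAARS1 libraries were well above the controls, at 146% of the control mean (log2 fold change 0.54 ± 0.0629 (SE), limma adjusted p = 1.27e-07). TSC2 (ENSG00000103197, chr16:2047465-2089487, plus strand), which carries the GTPase-activating domain, had 95.3 and 94.4 CPM in the controls against 91.9 and 88.0 CPM under siAARS1. Its log2 fold change of -0.08 (95% confidence interval -0.17 to 0.02, limma adjusted p = 0.134) did not pass the test, but did under median scaling (-0.30) and quantile normalization (-0.11). Relative to the all-gene median, TSC2 was at -0.02 with the deposited scaling, -0.04 with median scaling and 0.03 with quantile normalization. The CPM ratio of TSC1 to TSC2 was 40.1% and 35.4% in control libraries and 56.2% and 60.5% in siAARS1 libraries, a difference in log2 ratio of 0.62 (exact permutation test, p = 0.333) that was 0.10 at the least after the composition corrections. TSC2 shares 778 exon bases with PKD1 and 402 with NTHL1, both on the opposite strand.

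SESN3 (ENSG00000149212, chr11:95165513-95232541, minus strand), a stress-induced sestrin, had 25.2 and 27.9 CPM in the controls against 61.4 and 65.8 CPM under siAARS1. The siAARS1 libraries held 239% of the control mean (log2 fold change 1.23 ± 0.0622 (SE), limma adjusted p = 1.19e-13). A correction for transcript GC content and length turned that direction (-0.33), and one for coding GC content and length kept it (0.46). Of its paralogs SESN2 was lower and SESN1 did not pass the test, and after the transcript correction they were at -0.07 and -0.15, neither past the threshold. After the coding correction SESN2 was at -0.06 (not called) and SESN1 at -0.70 (called lower). SESN2, a leucine-binding sestrin, had 23.1 and 24.4 CPM in the controls against 20.1 and 16.3 CPM under siAARS1 (log2 fold change -0.37 ± 0.0869 (SE), limma adjusted p = 6.72e-04). SESN1 had 6.98 and 5.36 against 6.54 and 7.40 CPM, with overlapping groups and a log2 fold change of 0.16 (95% confidence interval -0.10 to 0.42). The CPM ratio of SESN3 to SESN2 was 109% and 114% in control libraries and 305% and 404% in siAARS1 libraries (log2 difference 1.60, exact permutation test, p = 0.333). The difference turned to -0.26 after the transcript correction and was 0.52 after the coding correction.

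**Figure D2:**
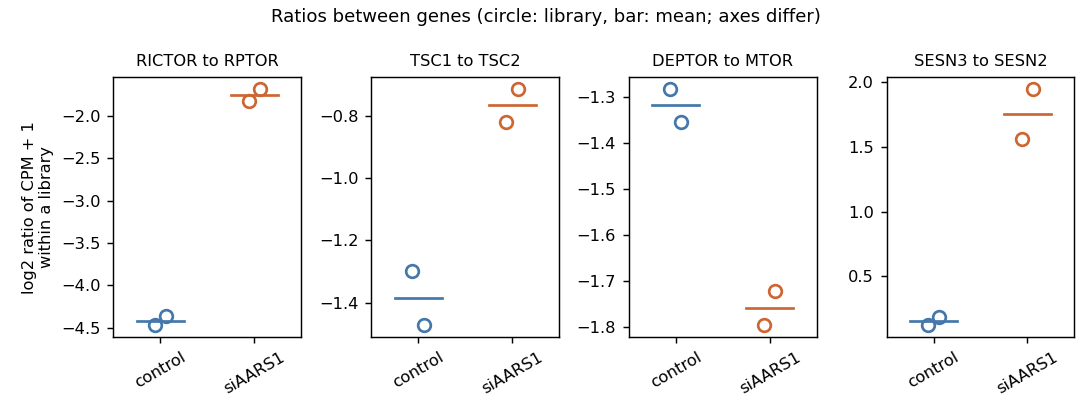
Log2 ratio of CPM + 1 between 2 genes within each library, for 4 pairs; circles are libraries, bars are group means and the vertical axes differ. The groups do not overlap for any pair: the mean rises from -4.42 to -1.76 for RICTOR to RPTOR, from -1.38 to -0.77 for TSC1 to TSC2 and from 0.15 to 1.76 for SESN3 to SESN2, and goes from -1.32 to -1.76 for DEPTOR to MTOR.

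Per kilobase of the longest protein-coding transcript, the order of the levels in control libraries was RHEB (76.3 CPM per kb), MLST8 (44.0), DEPTOR (24.2), AKT1S1 (20.8), MTOR (18.0), TSC2 (15.0), RPTOR (11.2), TSC1 (4.11), SESN3 (2.78) and RICTOR (0.254 CPM per kb). No neighbours in that order overlapped between libraries. In siAARS1 libraries DEPTOR (19.3 CPM per kb) fell behind AKT1S1 (22.3) and was not separated from MTOR (19.6), and SESN3 (6.65) passed TSC1 (6.02). RICTOR was last in both groups, at 2.02 CPM per kb in siAARS1 libraries. These levels rest on 1 transcript per gene, and which isoforms the cells used was not tested.

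The fold changes of all genes went down with the GC content of their transcripts, and RICTOR and SESN3 rose at its AT-rich end. With the trend over transcript GC content and length removed, RICTOR was still at 1.08. SESN3 was then at -0.33, DEPTOR at -0.37 and RHEB at -0.23. Across 13819 genes, Spearman's correlation between the log2 fold change and transcript GC content was -0.66, and with transcript length it was 0.32; genes are not independent and share the 4 libraries, so this is a description. RICTOR (36.5% GC) and SESN3 (37.1%), with transcripts of 9543 and 9558 bases, lay in the lowest quartile of GC content, where 35.6% of genes were at least 2-fold higher. RPTOR (59.8%), AKT1S1 (60.4%), TSC2 (60.5%) and MLST8 (64.1%) lay in the highest quartile of GC content, where 0% of 3455 genes were at least 2-fold higher. TSC1 (48.5%), RHEB (48.0%) and DEPTOR (45.7%) shared the quartile above the lowest, yet TSC1 was higher and the others lower. MTOR (52.2%), called higher, lay in the quartile above that, where 9.53% of genes were called higher and 55.2% lower. Across 12133 genes the Spearman correlation was -0.69 with GC content at the third codon position and -0.34 with the share of alanine codons. Alanine codons made up 5.27% of the coding sequence of RICTOR, 5.49% of SESN3, 7.72% of RPTOR and 12.9% of AKT1S1, against a median of 6.98% over all genes.

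**Figure D3:**
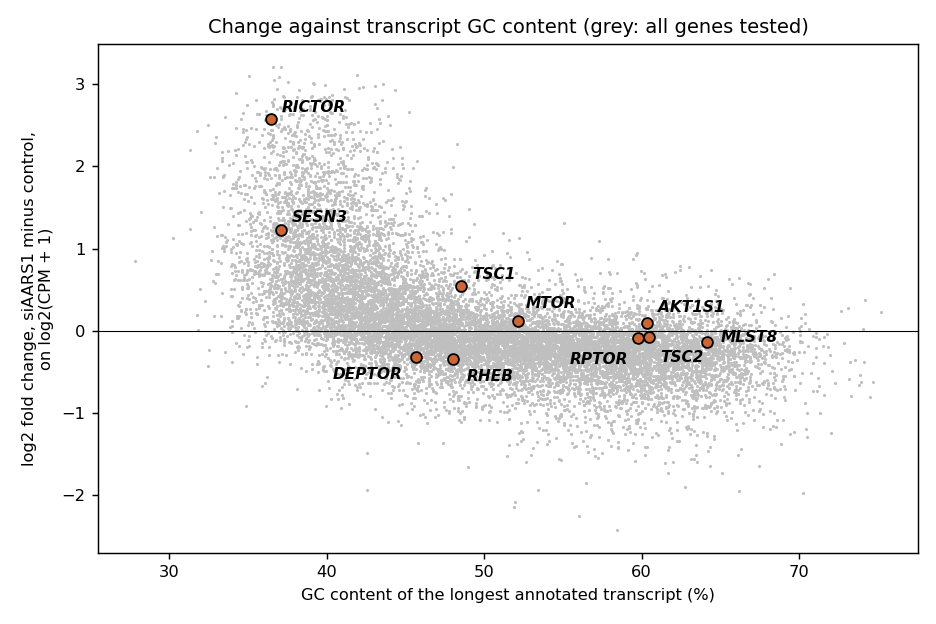
Log2 fold change (siAARS1 minus control, on log2(CPM + 1)) against the GC content of the longest annotated transcript, for all genes tested (grey) and the members (orange, named). Protein-coding transcripts were preferred over longer noncoding ones. Fold changes go down with GC content; RICTOR and SESN3 lie at the AT-rich end at 2.57 and 1.23, and RPTOR, AKT1S1, TSC2 and MLST8 lie between -0.13 and 0.10 (AKT1S1 is at -0.13 and MTOR at -0.10 under median scaling).

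Correcting each library for its smooth trend over transcript GC content and length, or over coding GC content and length (the latter chosen after seeing the data), moved most members. Either correction would also remove a real change that tracks these features. RICTOR stayed higher with log2 fold changes of 1.08 and 0.48, and TSC1 with 0.49 and 0.31. DEPTOR (-0.37 and -0.16) and RHEB (-0.23 and -0.72) stayed lower, and all 4 genes passed the test in both fits. SESN3 was -0.33 after the transcript correction and 0.46 after the coding correction, past the threshold in opposite directions. RPTOR (0.24 and 0.15), MLST8 (0.23 and 0.19), AKT1S1 (0.43 and 0.49) and TSC2 (0.26 and 0.22) were all called higher. MTOR was called higher after the transcript correction (0.30) and not after the coding correction (0.04).

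Counts of members called therefore varied with the processing. After the transcript correction 7 were called higher and 3 lower, against 31.8% and 34.1% of all genes. After the coding correction 7 were higher and 2 lower, against 31.8% and 35.6%. With median scaling 3 were higher and 7 lower (23.8% and 56.3% of all genes), and with quantile normalization 4 were higher and 5 lower (28.1% and 47.7%). Among all genes called, 46.2% were higher with the deposited scaling, 29.7% with median scaling and 37.0% with quantile normalization. Fitted on recovered reads, edgeR and DESeq2 each called 7 members, against 69.1% and 58.8% of all genes. 

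**Figure D4:**
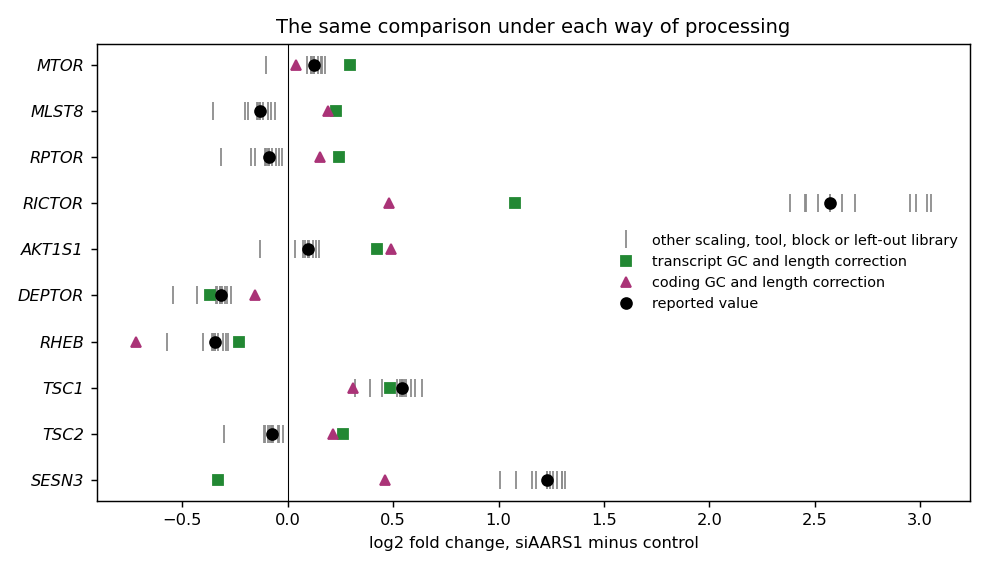
Log2 fold change (siAARS1 minus control) of each member under each way of processing: the reported value (black circle), other scalings, tools, the replicate block and left-out libraries (grey ticks), and the corrections for transcript (green square) and coding (purple triangle) GC content and length. RICTOR and TSC1 stay above 0 and DEPTOR and RHEB below 0 throughout, while MTOR, MLST8, RPTOR, AKT1S1, TSC2 and SESN3 each cross 0 in at least 1 setting.

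Of the other genes of the pathway, listed by role, 69 were tested and IRS2 was not analysed here. Of the 69, 20 were higher, 33 were lower and 16 did not pass the test, and 8 were at least 2-fold higher, beside 32.6% higher, 38.0% lower and 10.6% at least 2-fold higher of all genes. After the transcript correction 21 were higher and 23 lower, and under median scaling 13 were higher and 46 lower. Their median log2 fold change was -0.12, against -0.05 over all genes. Directions in the list counts refer to the deposited scaling, and the counts are to be read beside those shares of all genes.

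Among growth factor inputs 3 of 9 genes were higher and 3 lower, and the phosphoinositide 3-kinase genes PIK3R1 and PIK3CA had the largest rises of these 69 genes. PIK3R1, a regulatory subunit, had 20.5 and 19.4 CPM in the controls against 102 and 104 CPM under siAARS1 (log2 fold change 2.32 ± 0.0555 (SE), limma adjusted p = 4.06e-19). PIK3CA, the alpha catalytic subunit, had 2.49 and 2.36 against 13.3 and 14.5 CPM (log2 fold change 2.12 ± 0.116 (SE), limma adjusted p = 4.35e-13), and 35.8% of its exon bases are shared with KCNMB3 on the opposite strand. Both stayed called higher after either correction. PIK3CB, another catalytic subunit, was higher (0.71) but called lower after both corrections (-0.40 and -0.97). The entry listed as PIK3R2, another regulatory subunit, and AKT1, the kinase downstream, were lower, at 80.4% and 80.2% of control (log2 fold changes -0.31 and -0.32). AKT1 did not pass the test after either correction, nor did PIK3R2 after the transcript correction, the 1 run for it. The gene model of that PIK3R2 entry shares 76.8% of its exon bases with another same-strand model named PIK3R2, which was not listed. It shares 19.4% with IFI30, so its level may not be that of PIK3R2 alone.

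All 10 genes of the TSC complex, energy and stress input passed the test, 3 higher and 7 lower, where 70.7% of all genes did. The catalytic subunits of the energy sensor AMPK were higher, PRKAA2 at 4.16 and 4.85 against 12.4 and 14.6 CPM (log2 fold change 1.40) and PRKAA1 at 237% of its control mean of 40.6 ± 0.930 CPM (SD, n = 2; log2 fold change 1.23). After the transcript correction they were at -0.12 (not called) and -0.15 (called lower), and after the coding correction at 0.75 and 0.24 (both called higher). DDIT4L, a relative of the mTORC1 inhibitor REDD1, had 37.1 and 34.7 CPM in the controls against 17.7 and 20.03 CPM under siAARS1 (log2 fold change -0.89). TBC1D7, the smallest subunit of the TSC complex, had 29.4 and 29.6 against 19.9 and 20.5 CPM (-0.53). DDIT4L and TBC1D7 stayed lower in both corrections.

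Amino acid sensors (6 genes) had 1 higher and 3 lower. The arginine sensor CASTOR1 (listed as GATSL3) had 8.15 and 7.88 CPM in the controls against 3.37 and 3.79 CPM under siAARS1, 44.6% of control (log2 fold change -0.98, limma adjusted p = 2.73e-07), and it stayed lower in both corrections; 46.0% of its exon bases are shared with an overlapping gene model on the same strand. BMT2 (SAMTOR, listed as C7orf60), which binds S-adenosylmethionine, was higher (2.46 and 2.74 against 5.38 and 4.75 CPM, log2 fold change 0.75). It was not called after the transcript correction (-0.11) and was called higher after the coding correction (0.31). 

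In GATOR1 and KICSTOR, which restrain mTORC1 at the lysosome, 1 of 7 genes was higher and 2 were lower. NPRL3 (log2 fold change -0.34) and NPRL2 (-0.24) of GATOR1 fell and ITFG2 of KICSTOR rose (0.26). The falls did not pass the test after either correction. ITFG2 was called higher after both corrections (0.48 each) and did not pass the test under median scaling (0.04). All 5 genes of GATOR2, which opposes GATOR1, passed the test, 2 higher and 3 lower, again beside 70.7% of all genes. MIOS had 24.4 and 25.9 CPM in the controls against 56.6 and 56.8 CPM under siAARS1 (log2 fold change 1.14). It was called higher after the transcript correction (0.67) and lower after the coding correction (-0.42). SEH1L was also higher (0.59), but called lower after the transcript correction (-0.28) and higher after the coding correction (0.28). SEC13 (-0.33) and WDR24 (-0.31) were lower, neither of them past the threshold after a correction.

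Among Rag GTPases, the Ragulator that anchors them at the lysosome, and folliculin with its partners, 5 of 12 genes were higher and 5 lower. FNIP1 had 5.42 and 6.90 CPM in the controls against 18.8 and 20.7 CPM under siAARS1 (log2 fold change 1.54 ± 0.107 (SE), limma adjusted p = 2.86e-11). FNIP2, its paralog and like it a partner of folliculin, had 12.9 and 10.5 against 24.7 and 27.2 CPM (1.09 ± 0.0919 (SE), limma adjusted p = 7.87e-10). FNIP2 stayed called higher after both corrections, and FNIP1 after the transcript correction (0.32) but not the coding correction (0.16). The Ragulator subunit LAMTOR2 (-0.50) and the GTPase RRAGA (-0.47) were lower, also after both corrections.

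Of 14 mTORC1 substrates 3 were higher and 8 lower (32.6% and 38.0% of all genes). RPS6KB1, the S6 kinase, had 15.6 and 16.4 CPM in the controls against 39.6 and 40.8 CPM under siAARS1 (log2 fold change 1.28 ± 0.0688 (SE), limma adjusted p = 3.43e-13). It was at 0.06 after the transcript correction (not called) and 0.75 after the coding correction (called higher). MITF was higher (0.73), with 0.03 after the transcript correction (not called) and 0.71 after the coding correction (called higher). Its relative TFEB, a regulator of lysosomal genes, had 17.7 and 19.4 against 11.3 and 11.6 CPM (-0.65). ULK2, an autophagy kinase, was lower (-0.46), and TFEB and ULK2 stayed lower in both corrections. Of 6 mTORC2 partners and mTOR assembly factors, TELO2 (0.21) and TTI1 (0.15) were higher and PRR5 (-0.53) and TTI2 (-0.30) were lower. Under median scaling TELO2 (-0.02) and TTI1 (-0.08) changed sign, neither of them called. TELO2 was called higher after both corrections (0.58 and 0.55). TTI1 was called higher after the transcript correction (0.23) and lower after the coding correction (-0.31). TTI2 shares 22.1% of its exon bases with MAK16, and WDR24 35.7% with a gene model on the opposite strand.

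**Figure D5:**
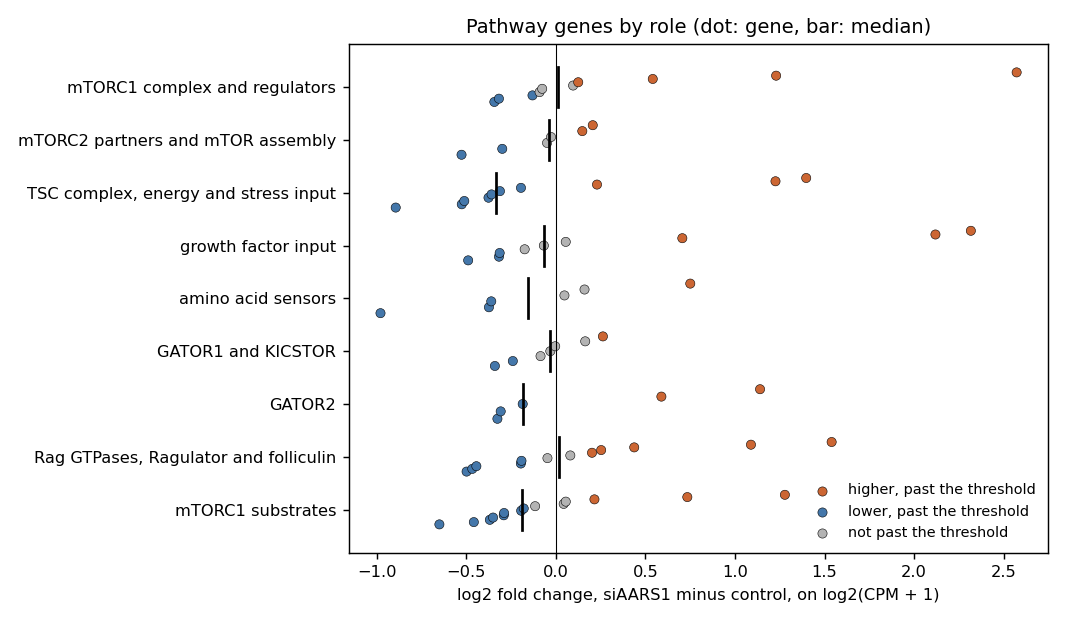
Log2 fold change (siAARS1 minus control, on log2(CPM + 1), deposited scaling) of the members and of 69 other pathway genes by role; dots are genes, coloured by whether they passed the test, and bars are list medians. Each list holds genes on both sides of 0, and values reach from -0.98 (CASTOR1) to 2.57 (RICTOR).

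The genes whose pattern over the 4 libraries was most like that of RICTOR, by Euclidean distance of log2(CPM + 1) centred on the control mean, were BBX (distance 0.0437), RBBP8 (0.0477) and RP11-588K22.2 (0.0532). Those nearest to RHEB were C1orf54 (0.0129), GAD1 (0.0158) and ABRACL (0.0164). With 4 libraries in 2 groups, this likeness reflects little more than the size of the difference between the groups.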

How the data were processed

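RNA-seq was measured in 2 control and 2 siAARS1 libraries, grouped by the sample titles. The authors deposited CPM for 14431 genes, and per the submitters' processing notes RSEM 1.3.3 and hg38 were used; how CPM was scaled, the use of strand and the annotation were not given in the sources used here. CPM corrects for neither length nor GC content. Of the values, 100% were whole multiples of 1 read (within 0.05 reads), so reads were recovered. RSEM estimates need not be whole and the library sizes behind the CPM were not whole numbers, so these may be rounded or other counts than those the authors scaled, and the read counts and count fits rest on them. Replicates differed beyond sampling noise (chi-square per gene 3.63 and 3.61).

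The test was limma 3.58.1 (R 4.3.3, eBayes with trend) on log2(CPM + 1), which understates changes of low genes, for the 14199 genes averaging 1 CPM or more in either group, Benjamini-Hochberg threshold 0.05. The alternatives included recovered reads in edgeR 4.0.16 (9806 genes called) and DESeq2 1.42.0 (8355), other scalings, a pseudocount of 0.1, no filter, a threshold of 0.01, left-out libraries, a replicate block and GC and length corrections (mgcv 1.9.3). Only limma and edgeR with TMM were tested on simulated data, which had few changed genes and no trend over GC content, unlike these data.

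The members and lists were chosen with earlier results of these data known. Named genes were the members, AARS1, the other sestrins, up to 2 rises and 2 falls per list (called, without overlap, at least 5 CPM in the higher group) and the 3 nearest genes of 2 members. Coordinates and transcripts are from GENCODE v29 (GRCh38), matched by identifier for 97.2% of genes and with a coding sequence for 84.8%. The longest protein-coding transcript was used, or the longest transcript where a gene had no protein-coding one.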

Additional observations from a re-analysis of the deposited data

How the results depend on the processing

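The number of members called was 6 to 10 over 16 alternatives, against 7. Of all 14199 genes tested, 10032 were called with the deposited scaling, 11378 under median scaling and 10760 under quantile normalization. After the transcript and coding corrections 9107 of 13819 and 8178 of 12133 genes were called. Called higher were 7 after the GC content and length correction, 7 when it was combined with the replicate block and 7 after the coding correction, against 4; called lower were 7 under median scaling and 5 under quantile normalization, against 3. With 1 library left out, each of the 10 members kept its direction (RICTOR at 2.45 to 2.69, RPTOR at -0.15 to -0.03). RICTOR, DEPTOR, TSC1 and RHEB kept direction and call in all 16. Values that turned were MTOR (-0.10) and AKT1S1 (-0.13) under median scaling, though relative to the all-gene median both stayed higher (0.16 and 0.13). After the transcript correction, with or without the block, RPTOR (0.24), MLST8 (0.23), TSC2 (0.26) and SESN3 (-0.33) turned; after the coding correction RPTOR (0.15), MLST8 (0.19) and TSC2 (0.22) did. The cause was not tested. The difference in the log2 ratio of SESN3 to SESN2 was -0.26 after the transcript correction and 0.52 after the coding correction, against 1.60. Of the other pathway genes 13 were called higher and 46 lower under median scaling, 21 and 23 after the transcript correction, and 22 and 24 after the coding correction, against 20 and 33. The labels do not say that replicate numbers mark pairs (correlation of the deviations of same-numbered libraries 0.118). With the replicate number as a block 7 members were called, as without it, beside 10389 of 14199 genes with the block and 10032 without it. With 1 library left out, the lone library of its group was assumed to vary like the others. In control libraries RICTOR rested on 73 and 86 reads, which limits the precision of its fold change.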

Other observations

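Several paralogs within the pathway stood on opposite sides of 0 with the deposited scaling. They were picked after their values were seen, so the pattern is a description, and the difference between the paralogs was not tested. RPS6KB1 was higher in siAARS1 libraries, while RPS6KB2, the other S6 kinase, had 45.0 and 43.5 CPM in the controls against 42.7 and 34.8 CPM under siAARS1 (log2 fold change -0.19). PRKAB2, an AMPK subunit, was higher (0.23) and PRKAB1 lower (-0.19). RRAGB was higher (0.25) and RRAGA lower (-0.47), and RRAGC was higher (0.20) while RRAGD was lower (-0.44). Each of these 8 differences passed the threshold (limma), though under median scaling PRKAB2 (0.01), RRAGB (0.04) and RRAGC (-0.02) did not. The transcript correction undid the pattern for the kinases: RPS6KB1 was at 0.06 and not called, RPS6KB2 was called higher (0.15), PRKAB2 was called lower (-0.58) and PRKAB1 was at 0.03. After the coding correction RPS6KB1 (0.75) and PRKAB2 (0.30) were called higher, and RPS6KB2 (0.12) and PRKAB1 (0.02) were not called. RRAGC was not called after the transcript (0.08) or the coding (-0.08) correction, and RRAGB was not called after the coding correction (-0.08).

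The higher paralog had the lower transcript GC content in 3 of these pairs: 38.2% for RPS6KB1 against 62.3% for RPS6KB2, 41.4% for PRKAB2 against 54.2% for PRKAB1, and 45.3% for RRAGB against 52.2% for RRAGA. RRAGC (44.9%) and RRAGD (42.1%) had the opposite order. LAMTOR3 (37.7% GC) was the only Ragulator gene called higher with the deposited scaling (0.44), with LAMTOR2 (-0.50), LAMTOR4 (-0.20) and LAMTOR5 (-0.19) lower and LAMTOR1 (-0.05) not past the threshold. After the transcript correction LAMTOR3 (-0.56) and LAMTOR2 (-0.20) were called lower, LAMTOR4 (0.11) and LAMTOR1 (0.27) were called higher, and LAMTOR5 was at -0.01. The coding correction left LAMTOR3 (0.25) and LAMTOR1 (0.27) called higher, LAMTOR2 (-0.23) and LAMTOR5 (-0.11) called lower, and LAMTOR4 (0.08) not called.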
